A study of Mus musculus with 6 samples.

Results

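The genes described here are 37 type I interferon stimulated genes, taken by symbol from a list of genes known to respond to interferon alpha and beta, and all 37 were among the 55291 rows of the deposited expression table. They were read in tumour-associated macrophages (TAM, the macrophages that populate a tumour) from mouse hepatocellular carcinoma, a liver cancer. The cells were separated by the surface receptor TREM2, a lipid-sensing receptor of macrophages, into a TREM2+ group of 3 libraries and a TREM2- group of 3 libraries, both from liver tumour and with no treatment named for either. The strain, age and sex of the mice, the way the tumours were raised, the sorting gates and the link between replicates and animals are not stated in the sources used here. P-values therefore measure the spread between these libraries, which may be technical.

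Type I interferons bind a receptor made of IFNAR1 and IFNAR2 and activate the kinases JAK1 and TYK2, which phosphorylate STAT2. STAT2 and IRF9 are part of a complex, ISGF3, that binds the interferon stimulated response element in the promoters of its target genes. Many products of these genes detect, degrade or block viral RNA and proteins, and macrophages switch them on after sensing nucleic acids or bacterial products. Interferon gamma signals through a separate receptor, and part of its target genes is shared with type I interferon.

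Promoters of 5 of the genes are shown because they carry, or in 1 case lack, the letters of the response element, and because the results below turn on the genes behind them. Each is the 160 bases upstream of the RefSeq transcript start in build GRCm38.p6, written 5′ to 3′ on the strand of the gene, with capitals marking the 10 bases of the core GAAANNGAAA or its reverse complement TTTCNNTTTC (overlapping matches run together). Rsad2 lies at chr12:26456453-26456612 on the minus strand, Cmpk2 at chr12:26469055-26469214 on the plus strand, Isg15 at chr4:156200819-156200978 on the minus strand, Ifit1 at chr19:34640729-34640888 on the plus strand and Oas1a at chr5:120907526-120907685 on the minus strand.
Rsad2: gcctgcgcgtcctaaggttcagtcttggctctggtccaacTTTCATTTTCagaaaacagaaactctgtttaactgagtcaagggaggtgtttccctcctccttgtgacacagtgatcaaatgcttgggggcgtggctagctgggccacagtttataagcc
Cmpk2: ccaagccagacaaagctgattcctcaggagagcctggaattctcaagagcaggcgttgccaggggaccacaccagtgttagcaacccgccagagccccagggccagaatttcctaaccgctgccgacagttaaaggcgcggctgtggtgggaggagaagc
Isg15: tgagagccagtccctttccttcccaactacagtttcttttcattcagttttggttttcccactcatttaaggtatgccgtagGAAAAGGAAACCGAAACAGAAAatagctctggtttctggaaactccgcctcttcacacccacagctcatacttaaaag
Ifit1: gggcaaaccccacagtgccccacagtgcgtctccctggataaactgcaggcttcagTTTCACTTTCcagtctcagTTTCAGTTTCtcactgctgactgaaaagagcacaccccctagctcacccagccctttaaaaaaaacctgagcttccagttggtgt
Oas1a: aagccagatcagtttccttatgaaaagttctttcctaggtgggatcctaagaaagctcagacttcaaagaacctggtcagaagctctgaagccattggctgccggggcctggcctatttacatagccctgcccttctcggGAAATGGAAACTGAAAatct

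Rsad2 held 1 match, 120 bases before the start, and Isg15 held 3 overlapping matches that began 78, 72 and 66 bases before it. Ifit1 held 2, at 104 and 85 bases, and Oas1a held 2 overlapping ones at 20 and 14 bases. The Cmpk2 window held none. Over the 250 bases upstream, a match on either strand was found in 12 of the 28 interferon stimulated genes with a promoter in the table (42.9%), against 936 of all 27025 symbols there (3.46%). The 12 were Isg15, Oas3, Oas1a, Trim30a, Bst2, Stat2, Slfn5, Slfn8, Rsad2, Phf11b, Ifit3 and Ifit1. A match is a run of letters, not a bound site, and the window stops short of distal elements.

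The libraries differed in depth, repeat content and marker levels. Read numbers recovered from the table ran from 11493461 to 19929829, and TREM2- replicate 3 was the shallowest and TREM2- replicate 1 the deepest. A family of 12 genes of repeated sequence took 0.704%, 5.05% and 17.5% of the total in TREM2+ replicates 1, 2 and 3, and 0.427%, 12.9% and 24.6% in TREM2- replicates 1, 2 and 3. Trem2 itself was at 37.02 ± 5.51 TPM (a level scaled for length and library size, SD, n = 3) in the TREM2+ and 19.5 ± 2.28 TPM in the TREM2- libraries, without overlap but with adjusted p = 0.0855 by limma. Of 9 macrophage markers 1 was called higher in TREM2+ and none lower, and none was at 0 in any library. Of these 9, 8 had a positive difference. Their summed level was mostly Lyz2 (28300 to 37300 TPM in TREM2+ and 55300 to 70500 TPM in TREM2- libraries), and without Lyz2 it was 4240 to 5790 TPM, against 2660 to 5020 TPM. Of 8 endothelial markers 7 were called higher in TREM2+ (summed level 173 to 258 TPM, against 16.4 to 36.0), and of 5 basophil and mast cell markers 3 were called lower (16.3 to 25.3 TPM, against 115 to 204). In bulk RNA of this kind, fewer cells of a type and less RNA per cell cannot be told apart.

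None of the 37 interferon stimulated genes passed the test between TREM2+ and TREM2- macrophages in either direction. The test was limma on log2(TPM + 1) across the 13788 genes that reached 1 TPM in 3 or more libraries, adjusted by the Benjamini-Hochberg method, with 0.05 as the limit. All 37 were tested. Over all genes tested, 2.05% were called higher and 0.37% lower. The smallest adjusted p among the 37 was 0.0794, for Rsad2. At an unadjusted p under 0.05, 4 were higher in TREM2+ (Rsad2, Ifi44, Oasl1 and Phf11d) and 0 lower, where the background was 7.45% of all genes higher and 5.34% lower. The 3 TREM2+ values lay wholly above the 3 TREM2- values for Rsad2 and Ifi44 and wholly below them for Slfn5, that is 2 and 1 of 37, where 9.07% and 7.62% of all genes tested did so. These shares are near the background.

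The differences ran from a log2 fold change of -0.60 for Slfn5 to 1.30 for Rsad2, with a median of 0.12, and the median over all genes tested was -0.09. Of the 37, 24 had a positive difference and 13 a negative one. A positive share of 64.9% stood beside 39.0% over all genes. The median was not stable to the choice of libraries. Without TREM2- replicate 3 it was -0.14, without TREM2- replicate 1 it was 0.42, without TREM2+ replicate 1 it was -0.003, and without both libraries numbered 3 it was -0.109. The median over all genes tested moved too. In the same fits, in the same order, it was -0.183, 0.049, -0.121 and -0.095.

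**Figure D1:**
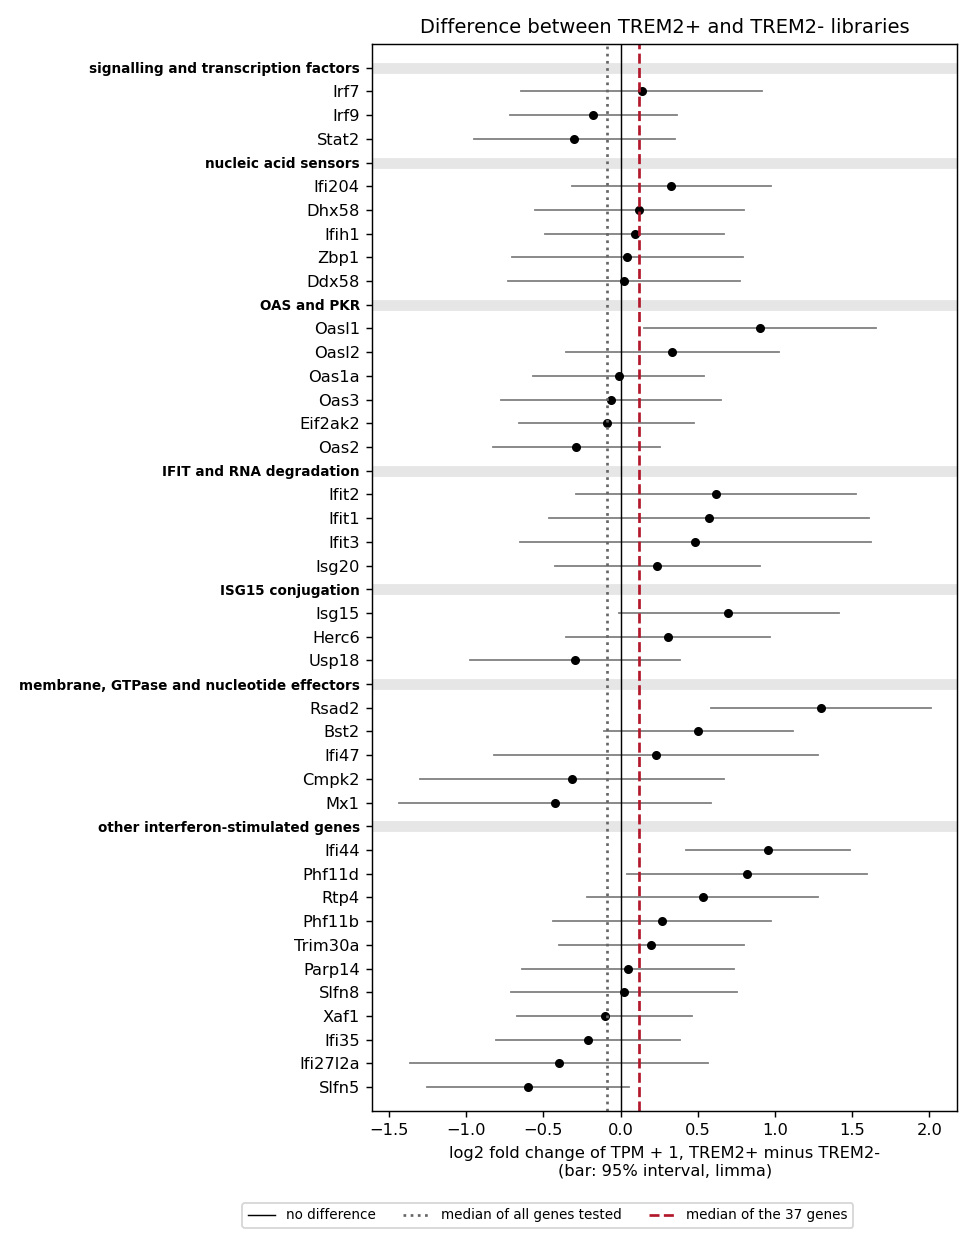
Difference between TREM2+ and TREM2- libraries for each of the 37 genes, grouped by role: the horizontal axis is the log2 fold change of TPM + 1, points are estimates and bars are 95% intervals from limma with 3 libraries a group. Most bars cross 0, the bars of Rsad2, Ifi44, Oasl1 and Phf11d lie above it, and the median of the 37 genes (dashed, 0.12) lies to the right of the median of all genes tested (dotted, -0.09).

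In most of the interferon stimulated genes, as in most genes tested, the range within the TREM2- group exceeded the difference between the group means. In 35 of the 37 the highest and lowest TREM2- libraries differed by more, on the log2 scale, than the means of the 2 groups did (94.6%, against 83.7% of all genes tested). The same held within the TREM2+ group for 28 of the 37 (75.7%, against 76.0%). The median range among the 3 TREM2- libraries was 1.03 on the log2 scale, against 0.625 over all genes, and among the 3 TREM2+ libraries it was 0.564, against 0.479. The 2 exceptions in the TREM2- group, Rsad2 and Ifi44, are described below.

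This spread followed the library. TREM2- replicate 1 was the highest of the 6 libraries for 23 of the 37 genes, TREM2+ replicate 1 for 8 and TREM2+ replicate 3 for 6. TREM2- replicate 3 was the lowest for 26, followed by TREM2- replicate 2 for 5, TREM2+ replicate 3 for 3, TREM2+ replicate 2 for 2 and TREM2+ replicate 1 for 1. TREM2- replicate 1 was also the highest library for 52.0% of all genes tested, near the 62.2% here. TREM2- replicate 3 was the lowest for 26.8% of all genes and for 70.3% of these. TREM2+ replicate 3 went the other way, being the lowest for 37.8% of all genes and for 8.11% of these. It was the highest for 6.89% of all genes and for 16.2% of these. Their summed level was 3802, 2880 and 3503 TPM in TREM2+ replicates 1, 2 and 3, and 5041, 2809 and 2218 TPM in TREM2- replicates 1, 2 and 3. So both the highest and the lowest sum belonged to the TREM2- group, and the TREM2+ libraries lay between them. Ifi27l2a alone gave 1875 TPM of the sum in TREM2- replicate 1, against 524 to 764 TPM in the other libraries. Most of the lead of TREM2- replicate 1 over TREM2+ replicate 1 came from this gene.

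Relative to the mean of each gene over the 6 libraries, the median of the 37 genes was 0.269, -0.13 and 0.11 (log2) in TREM2+ replicates 1, 2 and 3, and 0.455, -0.096 and -0.526 in TREM2- replicates 1, 2 and 3. The same median over all genes tested was 0.036, 0.073 and -0.205, and then 0.292, -0.019 and -0.166. That median too was highest in TREM2- replicate 1, but it was lowest in TREM2+ replicate 3. TREM2- replicate 3, where the 37 genes were lowest, also had the fewest reads (11493461) and the largest share of repeated sequence (24.6%). TREM2+ replicate 3 came next in both, with 12542138 reads and 17.5%, and had a median of 0.11 for the 37 genes. TREM2- replicate 1, where they were highest, was also the highest library for the summed markers of 6 of 11 cell types. These were plasmacytoid and conventional dendritic cells, T and NK cells, B and plasma cells, basophils and mast cells, and hepatocytes. Of all genes tested, 52.0% were highest in TREM2- replicate 1. Its summed plasmacytoid dendritic cell markers were 252 TPM, against 44.0 to 97.3 TPM in the other 5 libraries, and without Ly6d they were 53.9 TPM, against 12.6 to 23.2 TPM. Its T and NK cell markers summed to 3134 TPM, against 811 to 1344 TPM, and its B and plasma cell markers to 1824 TPM, against 428 to 868 TPM. Of the 8 markers of plasmacytoid dendritic cells, strong producers of type I interferon, 7 were tested and none was called or at 0 in any library. The part of depth, repeat content or other cells in the spread was not tested.

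**Figure D2:**
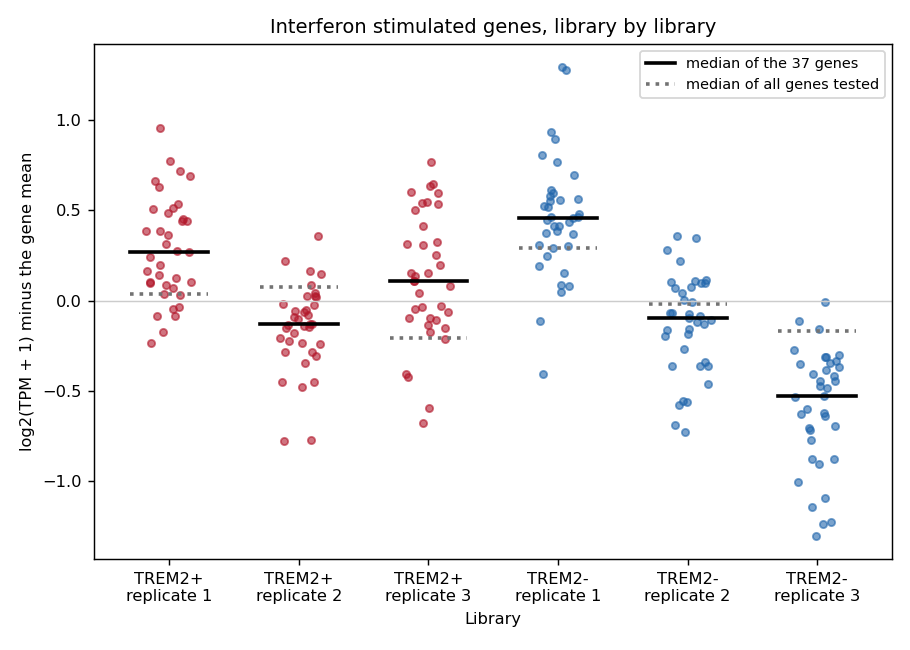
Each point is 1 of the 37 genes in 1 library, plotted as log2(TPM + 1) minus the mean of the gene over the 6 libraries (vertical axis) by library (horizontal axis), with the median of the 37 genes as a solid line and that of all genes tested as a dotted line. The 37 genes sit highest in TREM2- replicate 1 (median 0.455) and lowest in TREM2- replicate 3 (median -0.526), and the 3 TREM2+ libraries lie between.

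The transcription factors that carry the response differed between the groups by less than the range among the TREM2- libraries. Stat2, the STAT of type I and III interferon signalling, was at 24.9, 21 and 17.0 TPM in TREM2+ replicates 1, 2 and 3 and at 35.4, 27.0 and 17.7 TPM in the TREM2- ones, a log2 fold change of -0.30 ± 0.29 (SE) with adjusted p = 0.782 by limma. Irf9, the DNA-binding subunit of ISGF3, was at 41.3, 39.6 and 42.9 TPM, against 60.9, 46.1 and 36.2 TPM (-0.18 ± 0.24). The TREM2+ values of Irf9 lay within a narrow band inside the TREM2- range. Irf7, the factor that amplifies interferon alpha production, was at 179, 118 and 122 TPM, against 200, 122 and 79.2 TPM (0.14 ± 0.34). All 3 were highest in TREM2- replicate 1, and the groups overlapped in each.

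The 5 nucleic acid sensors had differences from 0.02 to 0.33 (log2), and none passed. The sign turned in some settings for 4 of them: in 7 for Ddx58, 6 for Zbp1, 3 for Ifih1 and 2 for Dhx58. Ddx58, which encodes the RNA sensor RIG-I, was at 8.96 to 10.1 TPM in TREM2+ and 6.49 to 16.6 TPM in TREM2- libraries. Ifih1, which encodes MDA5, a sensor of long double-stranded RNA, was at 4.97 to 6.31 TPM, against 3.75 to 6.68 TPM. Dhx58, which encodes LGP2, a regulator of the other two, was at 25.0 to 34.9 TPM, against 19.9 to 41.6 TPM. In these 3 the TREM2+ range lay inside the TREM2- range. Zbp1, a sensor of Z-form nucleic acid that can trigger necroptosis, was at 64.1 to 113 TPM, against 56.0 to 122 TPM. Ifi204, a DNA-binding protein of the p200 family, had the largest difference of the 5 (0.33 ± 0.28), with 122 to 180 TPM against 77.8 to 137 TPM. Of the 100-base stretches of Ifi204, 10.7% are shared with other genes of its family, so its reads may be split among them.

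Among the oligoadenylate synthetases, which make the second messenger that activates RNase L, Oas1a and Oas3 had differences near 0 and Oas2 a negative one. Oas1a was at 122 to 142 TPM in TREM2+ and 108 to 182 TPM in TREM2- libraries (-0.01 ± 0.24), although 40.9% of its 100-base stretches also occur in Oas1g and its level is uncertain for that reason. Oas2 was at 12.6 to 15.3 TPM, against 13.4 to 21.4 TPM (-0.29 ± 0.24), and Oas3 was at 4.70 to 5.95 TPM, against 3.83 to 9.67 TPM (-0.06 ± 0.32). The sign of Oas1a and Oas3 turned with median-of-ratios scaling (0.073 and 0.020). Eif2ak2, which encodes the kinase PKR that halts translation on double-stranded RNA, was likewise close to 0 (-0.09 ± 0.25).

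The OAS-like genes, related in sequence to these genes, had positive values in the main fit. Oasl1, which restrains Irf7 translation, was at 38.7, 23.0 and 32.7 TPM in TREM2+ replicates 1, 2 and 3 and at 23.5, 17.4 and 9.89 TPM in the TREM2- ones. Only TREM2+ replicate 2 and TREM2- replicate 1 crossed, by less than 1 TPM. The log2 fold change was 0.90 ± 0.33 (95% interval 0.149 to 1.655), with adjusted p = 0.274 by limma, and it was called only with library weights (adjusted p = 0.0466). Oasl2 had 0.33 ± 0.30, with 64.0 to 96.8 TPM against 41.3 to 88.2 TPM, and turned to -0.103 without both libraries numbered 3.

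**Figure D3:**
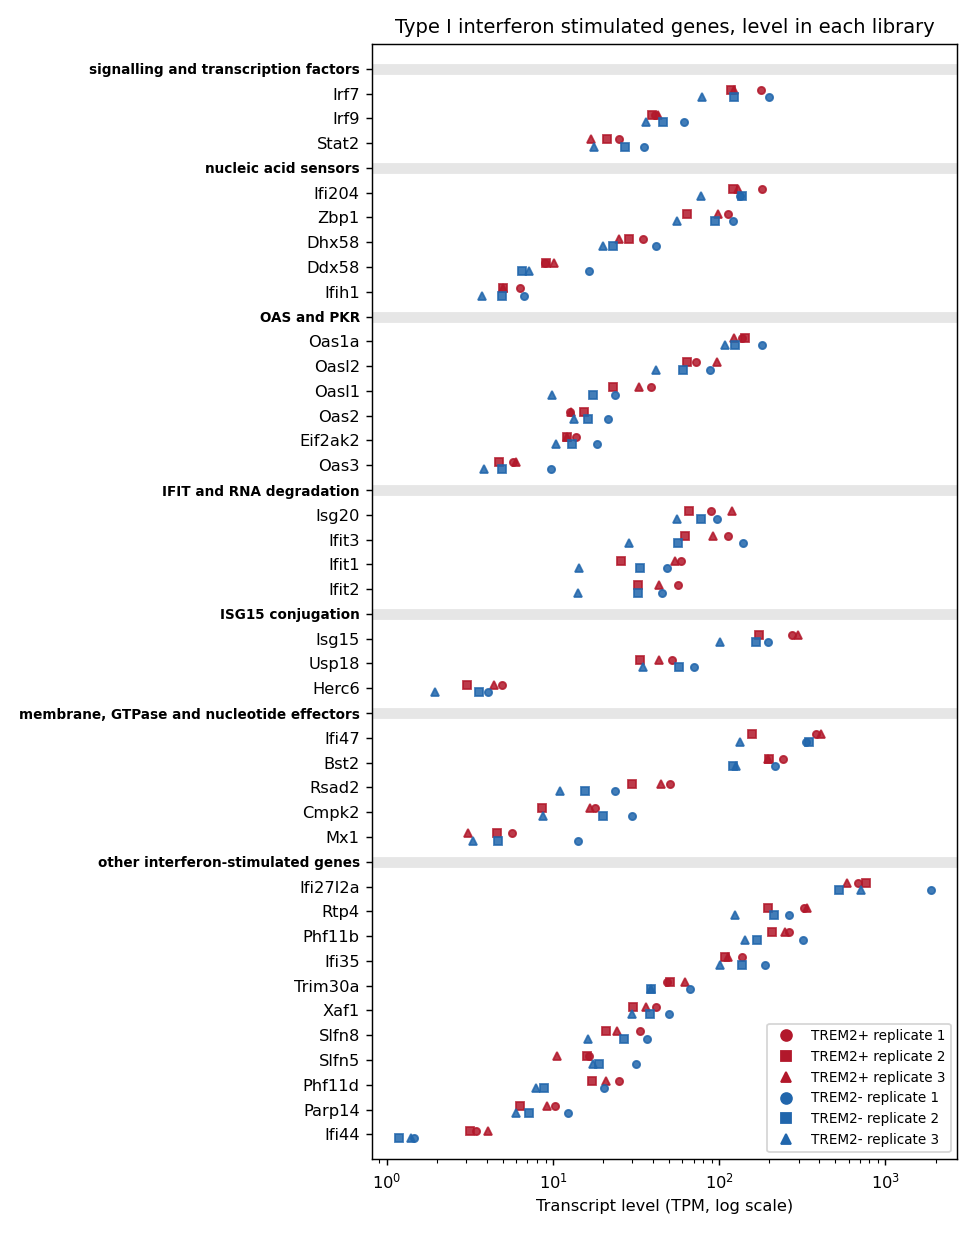
Level of each of the 37 genes in each of the 6 libraries, in TPM on a log axis (horizontal), with the genes grouped by role (vertical); red marks are TREM2+ and blue marks TREM2- libraries, and the mark's shape gives the replicate. The blue marks spread more widely than the red ones in most rows, and the colours separate in Rsad2, Ifi44 and Slfn5.

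The IFIT genes encode proteins that bind foreign RNA and block its translation, and Ifit3 had the widest range of the 37 within the TREM2- group. Ifit3 was at 113, 61.8 and 91.0 TPM in TREM2+ replicates 1, 2 and 3 and at 140, 56.3 and 28.8 TPM in the TREM2- ones, so its highest TREM2- library was 4.85-fold above its lowest. Its difference was 0.49 ± 0.50, and 31.7% of its 100-base stretches also occur in Ifit3b. Ifit1 was at 58.6, 25.5 and 53.8 TPM, against 48.3, 33.5 and 14.4 TPM (0.57 ± 0.46). Ifit2 was at 56.1, 32.6 and 43.1 TPM, against 45.2, 32.5 and 14.2 TPM (0.62 ± 0.40, adjusted p = 0.633 by limma). In all 3 the TREM2- replicate 3 value was the lowest of the 6 and the groups overlapped. Isg20, an RNA exonuclease, had 0.24 ± 0.29, with 65.7 to 119 TPM against 56.0 to 97.0 TPM. Without both libraries numbered 3, Ifit1, Ifit3 and Isg20 turned to -0.056, -0.087 and -0.180.

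The ubiquitin-like modifier Isg15 and the genes of its conjugation differed in sign. Isg15 was at 275, 173 and 297 TPM in TREM2+ replicates 1, 2 and 3 and at 196, 165 and 101 TPM in the TREM2- ones. The means were 248 ± 66.5 and 154 ± 48.7 TPM (SD, n = 3), and TREM2+ replicate 2 fell inside the TREM2- range. The log2 fold change was 0.70 ± 0.31 (95% interval -0.013 to 1.412), with adjusted p = 0.405 by limma. Herc6, the main ligase for Isg15 in the mouse, was low, at 3.02 to 4.94 TPM against 1.96 to 4.06 TPM (0.31 ± 0.29). Usp18, which removes Isg15 from proteins and damps signalling at IFNAR2, had a negative value, with 33.3 to 51.8 TPM against 34.8 to 70.6 TPM (-0.29 ± 0.30).

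Rsad2 had the largest difference of the 37. It encodes viperin, which makes a chain-terminating nucleotide from CTP, and its promoter holds 1 match to the response element as printed above. Its level was 50.6, 30.0 and 44.3 TPM in TREM2+ replicates 1, 2 and 3 and 23.6, 15.5 and 11.04 TPM in the TREM2- ones, from 926 to 1692 and 308 to 912 reads. Every TREM2+ value lay above every TREM2- value, with means of 41.6 ± 10.6 and 16.7 ± 6.37 TPM (SD, n = 3). The fold was 2.46 on the TPM + 1 scale, a log2 fold change of 1.30 ± 0.31 (95% interval 0.586 to 2.009), with adjusted p = 0.0794 by limma. It was called in 5 alternatives: a TPM filter of 5 (adjusted p = 0.0327), library weights (0.00796), voom on recovered reads (0.0213), quantile normalization (0.041) and median-of-ratios scaling (0.0482). With 1 library left out it kept a value of 1.05 to 1.57 and passed in 0 of those 6 fits.

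Cmpk2 lies head to head with Rsad2 on chromosome 12, with 12751 bases between the 2 genes, and encodes a nucleotide kinase that supplies the CTP viperin uses. Its difference was negative, unlike that of Rsad2. Its level was 17.9, 8.63 and 16.8 TPM in TREM2+ replicates 1, 2 and 3 and 29.7, 19.9 and 8.66 TPM in the TREM2- ones (-0.31 ± 0.44, adjusted p = 0.858 by limma). The ratio of Rsad2 to Cmpk2 was 2.83, 3.47 and 2.64 for TREM2+ replicates 1, 2 and 3, against 0.795, 0.776 and 1.27 for the TREM2- replicates. These ratios did not overlap. Their mean log2 was 1.57 ± 0.206 and -0.116 ± 0.404 (SD, n = 3), a difference of 1.68. The pair was chosen after its values were seen, so the ratio is a description with no test.

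**Figure D4:**
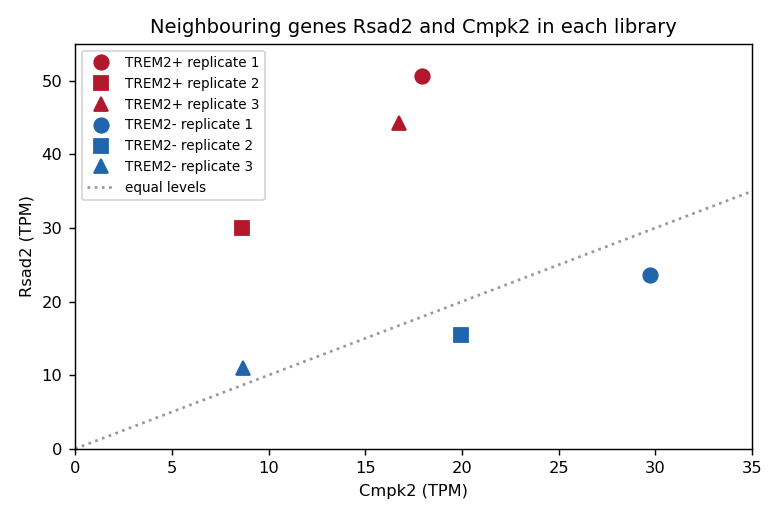
Level of Rsad2 (vertical axis, TPM) against that of its neighbour Cmpk2 (horizontal axis, TPM), with 1 mark per library and a dotted line at equal levels. The 3 TREM2+ libraries lie well above the line, at ratios of 2.64 to 3.47, and the 3 TREM2- libraries lie close to it, at 0.776 to 1.27.

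The other effectors at membranes and organelles did not separate the groups. Bst2, which encodes tetherin, the protein that holds budding virions at the cell surface, was at 198 to 241 TPM in TREM2+ and 120 to 217 TPM in TREM2- libraries (0.50 ± 0.27, adjusted p = 0.515 by limma), and was called only with library weights (0.83, adjusted p = 0.0224). Ifi47, an interferon-inducible GTPase, was the second most abundant of the 37, at 384, 157 and 408 TPM, against 331, 345 and 133 TPM (0.23 ± 0.46). Each group of Ifi47 held 2 high libraries and 1 low one, TREM2+ replicate 2 and TREM2- replicate 3. Mx1, a dynamin-like GTPase against influenza and related viruses, was at 5.62, 4.60 and 3.09 TPM, against 14.1, 4.64 and 3.29 TPM (-0.42 ± 0.45). The negative value of Mx1 rests on TREM2- replicate 1, and without that library it was 0.116.

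Among the remaining genes, Ifi44 had the second largest difference at the lowest level. It was at 3.43, 3.18 and 4.07 TPM in TREM2+ replicates 1, 2 and 3 and at 1.46, 1.18 and 1.40 TPM in the TREM2- ones, from 139 to 162 and 54 to 80 reads. The groups did not overlap, and the range within each group was under 0.3 on the log2 scale. The log2 fold change was 0.96 ± 0.23 (95% interval 0.425 to 1.485), with adjusted p = 0.083 by limma, on a scale that understates the change of a gene this low. It was called with voom on recovered reads (adjusted p = 0.0205), median-of-ratios scaling (0.0432), library weights (0.0079) and quantile normalization (0.0429), and in 0 of 6 fits with a library removed.

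Phf11d, a PHD-finger gene of the interferon-inducible Phf11 cluster, was at 24.8, 17.0 and 20.7 TPM in TREM2+ replicates 1, 2 and 3 and at 20.1, 8.83 and 7.84 TPM in the TREM2- ones. TREM2- replicate 1 alone reached the TREM2+ range. The log2 fold change was 0.82 ± 0.34 (95% interval 0.039 to 1.598), with adjusted p = 0.356 by limma, and it too was called only with library weights (adjusted p = 0.0145). Its neighbour Phf11b was at 261, 208 and 248 TPM, against 320, 168 and 142 TPM (0.27 ± 0.31), and 13.8% of its 100-base stretches occur in other genes of the cluster. Rtp4, a chaperone of G-protein-coupled receptors induced by interferon, was at 322, 195 and 336 TPM, against 263, 212 and 125 TPM (0.53 ± 0.33).

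Slfn5, a Schlafen family gene, had the most negative difference. It was at 16.4, 15.9 and 10.5 TPM in TREM2+ replicates 1, 2 and 3 and at 31.4, 18.8 and 17.4 TPM in the TREM2- ones. The groups came within about 1 TPM of each other, and the log2 fold change was -0.60 ± 0.29 (95% interval -1.253 to 0.056), with adjusted p = 0.457 by limma. An antisense gene, Slfn5os, overlaps 6.16% of its stretches, and the strand setting of the counting was not found in the sources used here. Its relative Slfn8 differed by 0.02 ± 0.32.

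Ifi27l2a, which encodes a small interferon-induced membrane protein, was the most abundant of the 37, at 687, 764 and 583 TPM in TREM2+ replicates 1, 2 and 3 and at 1875, 524 and 714 TPM in the TREM2- ones. TREM2- replicate 1 was far above the other 5, which were mixed in order. The log2 fold change of -0.40 ± 0.43 became 0.14 without that library and 0.23 with library weights. The last 4 genes lay near 0. Trim30a, an E3 ligase of the TRIM family, had 0.20 ± 0.26, Parp14, an ADP-ribosyltransferase, 0.05 ± 0.30, Xaf1, an antagonist of the apoptosis inhibitor XIAP, -0.10 ± 0.25, and Ifi35, a partner of Nmi, -0.21 ± 0.26.

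Genes with the response element core lay in both directions. The 12 genes with a match had differences from -0.60 to 1.30 with a median of 0.23, and the 16 with a window and no match had -0.31 to 0.955 with a median of 0.18. Slfn5 and Rsad2, the genes at both ends, each held a match, and Ifi44 and Cmpk2 held none. These are descriptions of 250 bases per gene, with no test.

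Genes of the pathway upstream of the response did not pass either. Of 56 listed genes for ligands, receptor, sensors, regulatory factors and restraint, 36 were tested, and their median was 0.03. Called higher were 0 and called lower 0, where 2.05% and 0.37% of all genes tested were called. At an unadjusted p under 0.05 by limma, 2 were higher and 0 lower, where the background was 7.45% and 5.34%. These counts are near the background. None of the 18 ligand genes reached the level needed for testing. Ifnb1, the interferon beta gene, had 4, 5 and 1 reads in TREM2+ replicates 1, 2 and 3 and 0, 2 and 0 in the TREM2- ones, counts too low to compare, since a count of 0 allows up to 3 reads. The receptor subunits overlapped between the groups, with Ifnar1 at 35.1 to 43.0 TPM against 30.1 to 51.1 TPM (0.01 ± 0.24) and Ifnar2 at 65.0 to 81.0 TPM against 52.2 to 79.1 TPM (0.22 ± 0.24). Irf3, the factor that starts interferon beta transcription, had -0.22 ± 0.24. The largest differences were positive for Tlr4, the lipopolysaccharide receptor (0.91 ± 0.32, adjusted p = 0.254 by limma), and Socs3, a feedback inhibitor of cytokine signalling (0.62 ± 0.23, adjusted p = 0.272). They were negative for the receptor kinase Tyk2 (-0.64 ± 0.28, adjusted p = 0.391) and the mitochondrial regulator Nlrx1 (-0.62 ± 0.36, adjusted p = 0.561).

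A wider list of interferon stimulated genes outside the 37 held 1 call. Of 73 listed genes, 69 were tested, 0 were called higher and 1 lower, and the median was -0.07. Among all genes tested 2.05% were called higher and 0.37% lower, and the median was -0.09. The TREM2+ values lay wholly above the TREM2- values for 7 of the 69 and wholly below them for 6. The shares over all genes tested were 9.07% and 7.62%. The gene called lower was Ifitm6, a myeloid member of the interferon-induced transmembrane family. It was at 292, 421 and 260 TPM in TREM2+ replicates 1, 2 and 3 and at 680, 931 and 694 TPM in the TREM2- ones. Ifitm6 fell by 1.26 ± 0.26 on the log2 scale (adjusted p = 0.0419 by limma), a call that held in 1 of 6 fits with a library removed. Of 7 classical monocyte markers 1 was called lower, and all 7 had a negative difference. Without Chil3, which alone ran from 1950 to 27700 TPM in TREM2+ and from 8000 to 69600 TPM in TREM2- libraries, the markers summed to 1390 to 1990 TPM against 2720 to 4340 TPM, with no overlap. The part of monocytes in the Ifitm6 result was not tested. The largest positive differences were those of Gm4951 (1.78 ± 0.42, adjusted p = 0.0747), an interferon-inducible GTPase gene, and Slfn4 (1.40 ± 0.37, adjusted p = 0.11), and the second most negative was that of Ms4a4c (-0.98 ± 0.30, adjusted p = 0.182).

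The list of interferon gamma response genes held 6 of 35 called higher and 0 lower, with a median of 0.36, where 2.05% of all genes tested were called higher, 0.37% lower and the median was -0.09. Those that rose were Nos2, the inducible nitric oxide synthase (2.43 ± 0.47), the guanylate-binding proteins Gbp2b (2.36 ± 0.27) and Gbp8 (1.41 ± 0.21), the T cell chemokine Cxcl9 (1.82 ± 0.31), the checkpoint ligand Cd274 (1.70 ± 0.34) and the Fc receptor Fcgr4 (1.61 ± 0.31). With 1 library left out, Gbp2b and Gbp8 were called in 6 of 6 fits, Cxcl9 in 4, Nos2 in 3, Cd274 in 2 and Fcgr4 in 1. Rescaling without the repeat family ended the calls of Cd274 (adjusted p = 0.0554 by limma), Nos2 (0.068) and Fcgr4 (0.076). Without both libraries numbered 3 none of the 6 was called, nor was any gene of the whole table. The values for the interferon gamma gene and its receptor were negative: Ifng had -0.75 ± 0.36 and Ifngr1 -0.78 ± 0.30, and neither passed. The interferon gamma list was chosen with earlier results of these data known, so its share of calls is a description. Whether the interferon gamma list differed from the 37 type I genes was not tested. Summed endothelial markers moved with the TREM2+ group and summed T and NK cell markers were lower in it, and their part in these values was not tested.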

How the data were processed

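RNA from 6 liver tumour macrophage samples, 3 TREM2+ and 3 TREM2-, was extracted with TRIzol and polyadenylated RNA was sequenced with paired ends, per the labels' protocols. Per the submitters' processing notes, the tools included STAR 2.7.10a, Subread and featureCounts 2.0.3, and the build was mm10. The sources used here state neither annotation nor strand setting. The deposited signal is a length-scaled value per gene whose 6 columns together sum to 1000000, so each library was rescaled to 1000000 and is called TPM. Multiplying by GENCODE M21 exon lengths, followed by scaling to read units, gave whole reads in 98.7% of 36671 matched rows above 0. Whole means within 0.01 of a read. The same held for 36 of the 37 genes (not Isg15). Since the unit was not a true TPM, the log2 test was kept as planned for length-scaled values.

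limma 3.58.1 in R 4.3.3 (trended empirical Bayes) was fitted to log2(TPM + 1) for the 13788 genes that reached 1 TPM in 3 or more libraries, with Benjamini-Hochberg adjustment over all of them. The scripts were run on simulated reads with the same relative spread for every gene and no library differences but depth. That run checks the code and does not cover the spread between these libraries. Intervals cover 95%. Replicates of a group differed by far more than counting noise. Promoters came from RefSeq (GRCm38.p6), where 28 of the 37 symbols matched. Coordinates are 1-based. Genes shown with every library were the 5 largest differences in each direction, the 5 most abundant, Stat2, Irf9 and Irf7. Ifit1, Ifit2 and Ifit3 were added after their values were seen. The other genes named from the pathway lists were those called, the 2 largest differences in each direction, Ifnb1, Ifnar1, Ifnar2 and Irf3, and 1 further gene that the rule names is not reported here. The genes and lists were chosen with earlier results of these data known. Alternatives changed the pseudocount, filter, scaling, weights, block and libraries used.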

Additional observations from a re-analysis of the deposited data

How the results depend on the processing

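Across 20 alternative settings, 15 of the 37 genes kept the sign of their difference in every setting that tested them, and 22 turned in at least 1. Of 735 gene values, 658 kept direction and side of the threshold, 65 turned in sign and 12 became called, in Rsad2, Ifi44, Oasl1, Bst2 and Phf11d. The count called higher was 0, and it was 1 with a TPM filter of 5, 2 with median-of-ratios scaling, 2 with quantile normalization, 5 with library weights, 2 with voom on recovered reads (chosen after seeing the data) and 2 at an adjusted p under 0.1. It was 0 to 0 with 1 library left out. The share of all genes called under the changed filter, scalings, weights, voom or limit is not given here. Those counts therefore have no background beside them. The count called lower was 0 in all settings run. The median of 0.12 ranged from -0.142 to 0.422 with 1 library left out. Library weights shifted the median of all genes by 0.1, leaving out TREM2- replicate 1 by 0.125 and leaving out TREM2- replicate 3 by -0.107.

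Replicate numbers were not stated to pair samples, and the deviations of same-numbered libraries correlated at 0.188, -0.0325 and 0.224. With the replicate block 0 genes of the 37 were called and the median was 0.122.

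With a pseudocount of 5, the sign turned in Ddx58 (-0.003). With the deposited values not rescaled, the sign turned in Ddx58 (-0.066), Parp14 (-0.043), Slfn8 (-0.066) and Zbp1 (-0.047). Without the repeat family, the sign turned in Ddx58 (-0.047), Parp14 (-0.025), Slfn8 (-0.054) and Zbp1 (-0.037). Without both libraries numbered 3, the sign turned in Ddx58 (-0.192), Ifi47 (-0.459), Ifih1 (-0.029), Ifit1 (-0.056), Ifit3 (-0.087), Irf7 (-0.106), Isg20 (-0.180), Oasl2 (-0.103), Parp14 (-0.205), Slfn8 (-0.247), Trim30a (-0.029) and Zbp1 (-0.329). With library weights, the sign turned in Eif2ak2 (0.028), Ifi27l2a (0.232), Mx1 (0.060), Oas1a (0.129), Oas3 (0.119) and Xaf1 (0.003). With median-of-ratios scaling, the sign turned in Oas1a (0.073) and Oas3 (0.020). Without mitochondrial genes, the sign turned in Oas1a (0.000). With voom on recovered reads, the sign turned in Oas1a (0.069). With quantile normalization, the sign turned in Oas3 (0.010). With 1 library left out, the values that turned in sign ranged as follows: Cmpk2 -0.778 to 0.056, Ddx58 -0.201 to 0.413, Dhx58 -0.084 to 0.431, Eif2ak2 -0.268 to 0.116, Ifi27l2a -0.779 to 0.140, Ifi35 -0.430 to 0.013, Ifi47 -0.216 to 0.672, Ifih1 -0.075 to 0.271 and Ifit3 -0.045 to 1.074. Of the others that turned, the ranges were Irf7 -0.189 to 0.475, Irf9 -0.355 to 0.012, Mx1 -0.793 to 0.116, Oas1a -0.172 to 0.203, Oas3 -0.302 to 0.270, Parp14 -0.147 to 0.319, Slfn8 -0.283 to 0.290, Xaf1 -0.279 to 0.077 and Zbp1 -0.264 to 0.289. The cause of these changes was not tested.

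The planned count test and TMM scaling on recovered reads were not run, since the step of 1 read depends on gene length. With 3 libraries a group and a median SE of 0.304 (log2), differences of the size seen in most of these genes were not detectable.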
